A study of Homo sapiens with 12 samples.

Results

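The SOCS proteins and CISH are inhibitors of signalling from cytokine and growth hormone receptors. Such receptors carry JAK kinases, which phosphorylate STAT factors; the STAT factors then enter the nucleus and bind DNA, and genes of the SOCS family are among those they switch on, which closes a negative feedback loop. Each SOCS protein holds an SH2 domain, by which it binds phosphorylated tyrosines, and a SOCS box, by which it recruits a ubiquitin ligase. In epithelial cells STAT3 acts downstream of IL-6 type cytokines and of growth factor receptors, and STAT5B downstream of growth hormone and prolactin.

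Here the 7 genes SOCS1 to SOCS7 and CISH, with the transcription factors STAT3 and STAT5B, were followed probe by probe. They were 10 of the 16557 genes that could be named on the arrays, and all 20 probes whose RefSeq accession mapped to one of these symbols were taken. The genes were selected on the measured difference between the conditions, above all that of SOCS2 probe A_23_P128215, so the differences of these probes are given as a description and without a test. Of the 20 probes, 10 were well above background on all 12 arrays and 19 passed the filter on dim probes. The exception was SOCS4 probe A_24_P90637, measured well above background on 1 control array and 3 of the others.

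RNA was labelled in a single colour and hybridised to 12 Agilent 44 k arrays. The cells were H358/Tet-On/SRSF2, a clone of the lung adenocarcinoma line H358 whose SRSF2 transgene is under a Tet-inducible promoter. On 6 arrays the cells carry the label control, with no treatment, and on 6 the label SRSF2 over-expression, after 24 hours with 1 µg/mL doxycycline. It is not stated for these arrays whether the control cells received doxycycline, the clone is a single one, and 2 arrays of a condition share a labelling, so the spread between arrays is in part technical. A pair of arrays of each condition lies on each of 3 slides, which were scanned separately. A value is the log2 of the background-subtracted intensity of a probe minus the 75th percentile of its array, and a difference is the mean of the SRSF2-labelled arrays minus the mean of the control arrays on this log2 scale, with the standard error of the limma fit.

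Between 54.2% and 68.0% of the spots were well above background on an array, and no gene spot was saturated. The epithelial markers were present, with 6 of 9 probes of EPCAM, CDH1 and the keratins well above background on all arrays and 0 of 9 absent from all arrays. Of the lung epithelial probes, 4 of 6 were on all arrays, while the surfactant gene SFTPB was well above background on 2. The defining markers PTPRC of leukocytes, CDH5 of endothelium and COL3A1 and PDGFRB of fibroblasts were well above background on 0 arrays. The single SRSF2 probe, A_23_P77776, went against the label: its level was 3.74 to 4.03 on the control arrays and 2.29 to 2.56 on those labelled SRSF2 over-expression. The log2 difference was -1.46 (standard error 0.06, limma adjusted p = 1.68e-09). The study also assayed SRSF2 in this clone by quantitative RT-PCR and western blotting, which were not analysed here. By RT-PCR the paper reports more SRSF2 mRNA in the over-expressing cells than in control cells, the direction of the label. Every direction below is therefore that of the labels, and "higher" means higher on the arrays labelled SRSF2 over-expression.

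SOCS2 and CISH, the members of the family best known as feedback inhibitors of growth hormone and STAT5 signalling, were both higher on the SRSF2-labelled arrays, by 1.47 (standard error 0.06) on the log2 scale for SOCS2 probe A_23_P128215 and by 0.55 (0.06) and 0.58 (0.09) for the CISH probes. On the control arrays SOCS2 probe A_23_P128215 lay between -1.14 and -0.88 with a median of -0.99. On the SRSF2-labelled arrays it lay between 0.34 and 0.62 with a median of 0.46. The conditions were thus far apart on a probe well above background on all arrays, and the gap, 2.78-fold in the means, was wide against the scatter of either condition, whose SDs were 0.09 and 0.12. Within the slides the difference was 1.54, 1.35 and 1.54.

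The other SOCS2 probe, A_24_P230675, was well above background on 0 of the control arrays and on 5 of the SRSF2-labelled arrays. It lay between -6.28 and -5.21 on the control arrays, with a median of -5.80. On the SRSF2-labelled arrays the range was -3.67 to -3.15 with a median of -3.51. The ranges did not overlap, but the probe passed the filter only through the SRSF2-labelled arrays and adds no support to the other SOCS2 probe. The fitted difference of 2.35 (standard error 0.16) rests on control signals that were not distinguished from background, with a median background-subtracted intensity of 18.0 against 92.4. Each control signal was also replaced by the lowest signal that counted as well above background on its array, where this was higher. The probe was then 2.59-fold higher on the background-subtracted scale. That value is not a lower bound, since some higher signals did not count as well above background. On control array 3 this was so for CISH probe A_24_P97465, at -3.50.

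CISH, the cytokine-inducible SH2 protein, had a pair of probes with nearly equal differences on the background-subtracted scale. Probe A_23_P144096 ranged from -1.13 to -0.88 on the control arrays (median -1.01) and from -0.58 to -0.34 on the SRSF2-labelled arrays (median -0.42). Probe A_24_P97465, well above background on 5 of the 6 control arrays, ranged from -3.55 to -3.23 (median -3.32) and from -2.99 to -2.50 (median -2.77). Neither probe's conditions overlapped. Within slides the differences were 0.53, 0.54 and 0.59 for the first probe and 0.60, 0.66 and 0.49 for the second.

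STAT dimers bind DNA at a split palindrome, TTCNNNGAA, and the form TTCCNGGAA is a well-known STAT5 site. Promoter windows from 250 bases before to 50 bases after the transcription start were at hand for 7 of the 10 genes (RefSeq, GRCh38.p14; SOCS3 with 2 windows). Only the CISH window held either motif among these 7 genes. It is printed because 4 matches to TTCNNNGAA lie within 167 bases of it, beginning 241, 230, 129 and 112 bases before the start, and the first and last of them also match TTCCNGGAA. The stretch is given 5′ to 3′ on the minus strand, the strand of the gene, with the 4 matches in capitals (GRCh38.p14, chr3:50611858-50612024).

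CISH promoter: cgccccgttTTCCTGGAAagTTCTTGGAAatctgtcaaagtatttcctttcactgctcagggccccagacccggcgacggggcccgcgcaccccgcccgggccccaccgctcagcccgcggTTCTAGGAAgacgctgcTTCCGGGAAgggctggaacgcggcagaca

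Both motifs read the same on either strand, and a match to the second is always a match to the first. Of all 35116 promoter windows of the same length, 7.66% held TTCNNNGAA and 1.15% held TTCCNGGAA. The windows of SOCS1, SOCS3, SOCS4, SOCS6, STAT3 and STAT5B held 0 matches to either. The letters describe the window and say nothing of binding in these cells, since factor binding was not measured here.

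SOCS3 and SOCS1 carry a short kinase inhibitory region by which they block JAK kinases directly, and SOCS3 is the main brake on IL-6 type signalling through gp130. They differed in what the arrays showed. SOCS3 probe A_23_P207058 ranged from 0.34 to 0.59 on the control arrays (median 0.48) and from 0.79 to 1.04 on the SRSF2-labelled arrays (median 0.94). The conditions did not overlap, and the log2 difference was 0.45 (standard error 0.06), with 0.42, 0.46 and 0.46 within the slides.

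SOCS3 probe A_23_P351069 ranged from -4.79 to -3.74 on the control arrays (median -4.10) and from -3.63 to -2.91 on the SRSF2-labelled arrays (median -3.23). It too separated the conditions, with a larger difference of 0.87 and a larger standard error of 0.16, and it was not well above background on 1 control array. For SOCS1 the conditions overlapped on both probes. Probe A_23_P420196 ranged from -1.43 to -1.04 (median -1.23) on the control arrays and from -1.40 to -0.94 (median -1.18) on the others, a difference of 0.07 (standard error 0.09). Probe A_24_P48014 ranged from -4.41 to -4.08 (median -4.31) and from -4.33 to -3.88 (median -4.16), a difference of 0.15 (0.09). The SOCS1 differences lay within the scatter of the arrays.

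SOCS4 and SOCS5, which have been linked to signalling from the EGF receptor, were measured mostly on dim probes. SOCS5 probe A_24_P328492, well above background on all arrays, ranged from -1.73 to -1.28 (median -1.60) on the control arrays and from -1.61 to -1.03 (median -1.30) on the SRSF2-labelled arrays. Those ranges overlapped, with a log2 difference of 0.25 (standard error 0.10). SOCS5 probe A_23_P5813 ranged from -5.30 to -4.16 (median -4.42) on the control arrays, 3 of which were well above background, and from -4.05 to -3.49 (median -3.79) on the others. It separated the conditions, with a difference of 0.73 (0.18) that ran from 0.41 on slide 2 to 1.16 on slide 1. As it passed the filter only through the SRSF2-labelled arrays, this separation adds no support.

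SOCS4 probe A_23_P151700 ranged from -4.37 to -3.90 (median -4.07) on the control arrays and from -3.89 to -3.13 (median -3.71) on the SRSF2-labelled arrays, so the conditions met without overlapping. Its difference was 0.45 (standard error 0.13), from 0.14 on slide 2 to 0.76 on slide 3. The untested SOCS4 probe A_24_P90637 ranged from -6.92 to -3.61 (median -6.35) on the control arrays and from -5.36 to -4.52 (median -4.93) on the others. One control array, at -3.61, lay above every other array, and the difference ran in opposite directions on slide 3 and on slides 1 and 2.

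SOCS6 and SOCS7 had small differences, upward for SOCS6 and downward for SOCS7. SOCS6 probe A_24_P91272 ranged from -0.91 to -0.67 (median -0.80) on the control arrays and from -0.88 to -0.37 (median -0.57) on the SRSF2-labelled arrays. SOCS6 probe A_23_P207981 ranged from -4.56 to -3.40 (median -4.01) and from -4.45 to -3.13 (median -3.63). The conditions overlapped on both, with differences of 0.17 (standard error 0.09) and 0.29 (0.23). Probe A_23_P207981 passed the filter only through the SRSF2-labelled arrays.

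SOCS7 was lower on the SRSF2-labelled arrays on both of its probes. Probe A_32_P43711 ranged from -2.09 to -1.93 (median -2.03) on the control arrays and from -2.34 to -2.08 (median -2.21) on the others, a difference of -0.19 (standard error 0.05) that turned to 0.02 when the arrays were scaled on the spike-in controls. Probe A_24_P367211 ranged from -3.63 to -3.17 (median -3.45) and from -4.33 to -3.63 (median -3.81), a difference of -0.45 (0.12), or -0.24 with that scaling. On each probe the highest SRSF2-labelled array lay just above the lowest control array.

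STAT5B and STAT3 were higher on the SRSF2-labelled arrays. STAT5B, with 1 probe (A_23_P100788) well above background on all arrays, lay in a narrow range of -3.54 to -3.41 (median -3.51) on the control arrays and between -2.88 and -2.38 (median -2.70) on the others. The conditions were well apart, with a log2 difference of 0.82 (standard error 0.08), or 1.77-fold, and with 0.75, 1.00 and 0.71 within the slides. The SRSF2-labelled arrays scattered more, with an SD of 0.17 against 0.06.

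STAT3 had 3 probes of one transcript accession, with differences of 0.46, 0.44 and 0.34 (standard errors 0.10, 0.09 and 0.12). Probe A_24_P116805 ranged from -2.01 to -1.57 (median -1.62) on the control arrays and from -1.49 to -1.10 (median -1.25) on the SRSF2-labelled arrays. Probe A_23_P107206 ranged from -1.495 to -1.15 (median -1.25) and from -1.04 to -0.67 (median -0.89). On these probes, both well above background throughout, the conditions did not overlap. On probe A_23_P100795, which ranged from -3.94 to -3.45 (median -3.68) and from -3.62 to -3.001 (median -3.36), they did.

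**Figure D1:**
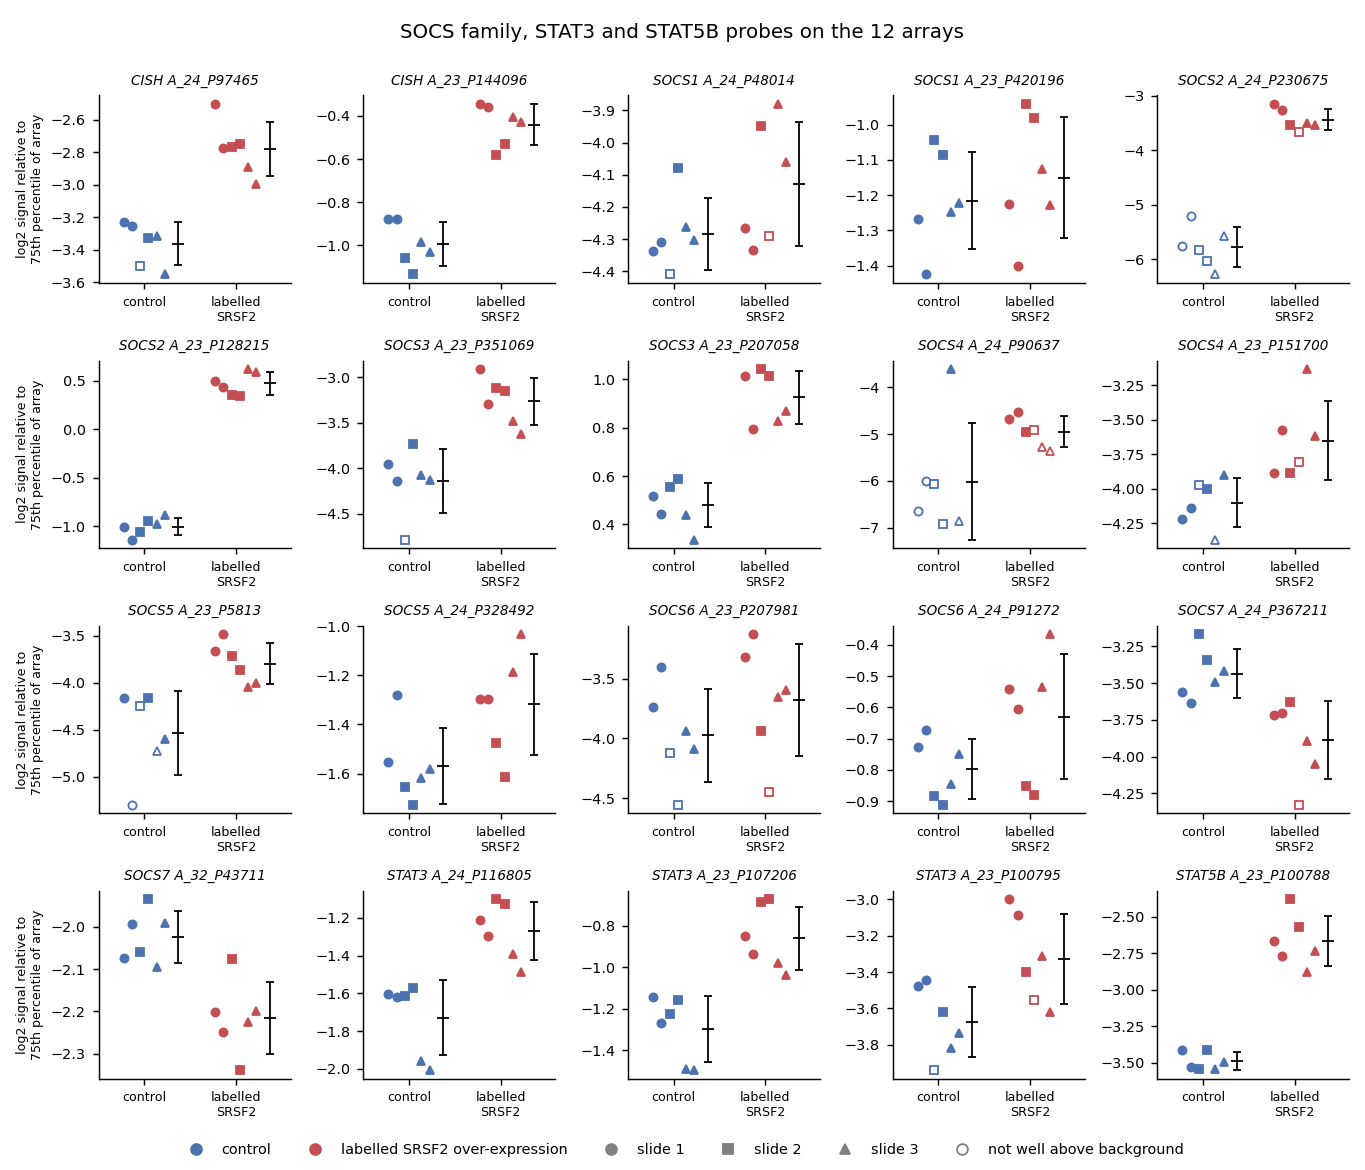
Level of each of the 20 probes on the 12 arrays, on the log2 scale after subtraction of the 75th percentile of each array, with its own axis in each panel; blue points are control arrays, red points arrays labelled SRSF2 over-expression, the shape gives the slide, open points were not well above background, and bars are the mean and SD of 6 arrays. SOCS2 A_23_P128215 runs from -1.14 to -0.88 on the control arrays and from 0.34 to 0.62 on the others, while the SOCS1 and SOCS6 points of the conditions overlap.

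Of the 19 probes tested, 17 were higher and 2, both of SOCS7, were lower on the SRSF2-labelled arrays. All 19 kept their sign on each of the 3 slides, a count that was not made for all probes. Their median log2 difference was 0.45, beside 0.011 over all 24330 probes tested. The 2-fold call (limma adjusted p of at most 0.05 and at least 2-fold) was made for 2 of the 19, both of SOCS2 and both higher, beside 7.00% of all probes, or 3.68% higher and 3.31% lower. At a 1.5-fold threshold 5 of the 19 passed, those of SOCS2, one each of SOCS3 and SOCS5 and that of STAT5B, beside 23.0% of all probes. With the adjusted p alone, 15 of the 19 passed (13 higher and 2 lower), beside 57.7% of all probes, 29.7% of them higher and 28.0% lower. The conditions did not overlap on 11 of the 19, all of them higher, beside 21.4% of the probes measured on every array that were higher and 19.1% that were lower without overlap. Among the 11 were SOCS2 probe A_24_P230675, SOCS4 probe A_23_P151700 and SOCS5 probe A_23_P5813, which passed the filter only through the SRSF2-labelled arrays. Since these genes were taken up for this contrast, nothing is read from these counts.

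The size of the differences on dim probes followed the treatment of the background. In 8 genes the probes were well above background on unequal numbers of arrays, and in 7 of these, all but STAT3, the probe with the fewest such arrays had the difference farthest from 0. Among these probes, SOCS2 A_24_P230675, SOCS5 A_23_P5813 and SOCS6 A_23_P207981 passed the filter only through the SRSF2-labelled arrays. The count was not made for other genes, and nothing is read from it. When the spot signal was used without background subtraction, SOCS2 probe A_24_P230675 fell from 2.35 to 0.96, SOCS3 probe A_23_P351069 from 0.87 to 0.38, SOCS5 probe A_23_P5813 from 0.73 to 0.35 and STAT5B from 0.82 to 0.55. CISH probe A_24_P97465 fell from 0.58 to 0.32. Less change was seen for others: SOCS2 probe A_23_P128215 was at 1.28, SOCS3 probe A_23_P207058 at 0.46 and CISH probe A_23_P144096 at 0.54. All 17 probes that were higher were still higher. For the 10 probes well above background on all arrays the median difference was 0.44 with and 0.35 without subtraction, and for the other 9 it was 0.45 and 0.17.

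With normexp, a model-based background correction, the directions no longer held. It put 9 probes higher and 10 lower, among them CISH probe A_24_P97465 at -0.04, SOCS3 probe A_23_P351069 at -0.09, SOCS4 probe A_23_P151700 at -0.22 and SOCS5 probe A_23_P5813 at -0.17, and took STAT5B to 0.05. Of the 9 probes not well above background on all arrays, 1 was higher with it, and of the other 10, 8 were. When local backgrounds flagged as outliers by the scanner software were first replaced by the median of the array, which was added once the data had been seen, normexp put 15 probes higher and 4 lower. STAT5B was then at 0.46, SOCS2 probe A_23_P128215 at 1.25 and the SOCS1 probes at -0.0031 and -0.0093. SOCS2 probe A_23_P128215 and SOCS3 probe A_23_P207058 kept differences of 0.99 and 0.44 with normexp on the local backgrounds as deposited.

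**Figure D2:**
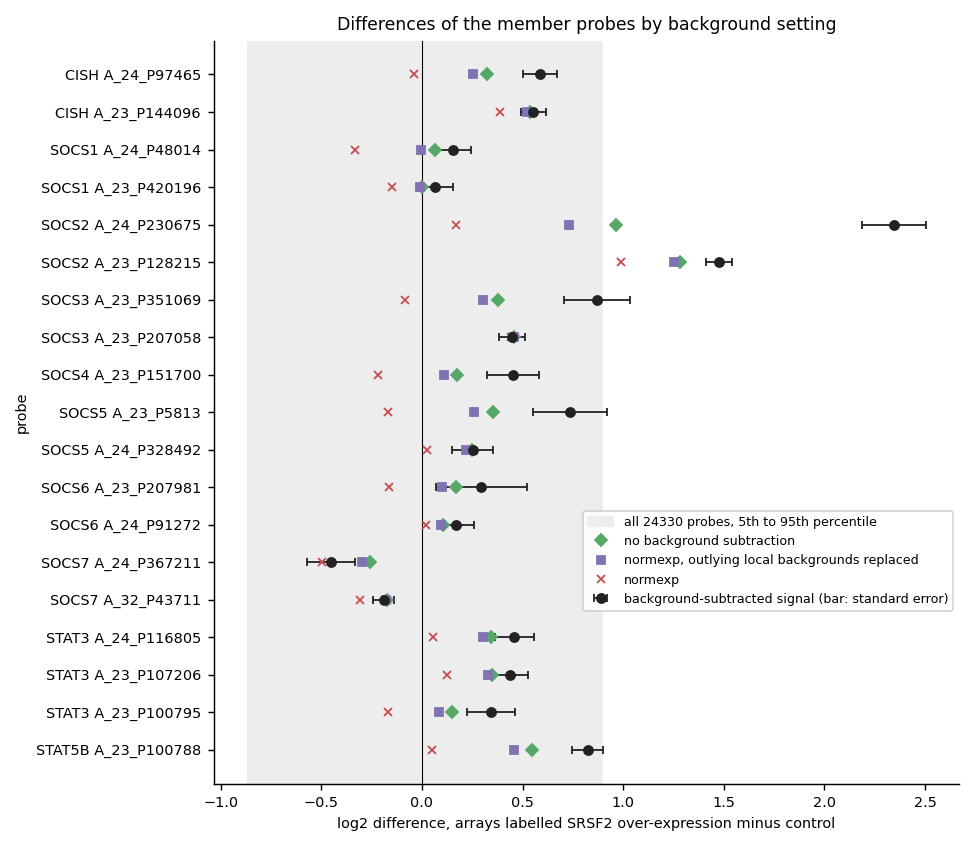
Log2 difference of the 19 probes tested, arrays labelled SRSF2 over-expression minus control arrays, with background-subtracted signal (black, bar the standard error), without background subtraction (green), with normexp (red crosses) and with normexp after replacing outlying local backgrounds (violet); the grey band spans the 5th to 95th percentile of all probes tested, -0.87 to 0.89. Both SOCS2 probes lie beyond the band on the background-subtracted scale, and the red crosses of 10 probes lie below 0.

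The slides carry equal numbers of arrays of each condition, and the level of a probe on a slide played no part in the choice of genes, so variation between slides could be tested. Which arrays share a labelling is not stated, so slide and labelling may coincide and could not be told apart. With condition in the model, the slide term passed an adjusted p of 0.05 in limma's F-test for 10 of the 19 probes, beside 51.9% of all probes, a share near that of the array as a whole. With normexp the count was 0. STAT3 had the lowest adjusted p of the members: the means of slides 1, 2 and 3 were -1.43, -1.35 and -1.71 on probe A_24_P116805 (limma adjusted p = 0.00059) and -1.05, -0.93 and -1.25 on probe A_23_P107206 (0.0025), so that slide 3 was the lowest on both. STAT3 probe A_23_P100795 had another order, -3.25, -3.63 and -3.62 (0.0062), with slide 1 the highest.

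On both SOCS6 probes slide 2 was the lowest. The slide means were -3.40, -4.27 and -3.82 on A_23_P207981 (limma adjusted p = 0.0019) and -0.64, -0.88 and -0.62 on A_24_P91272 (0.015). Slide 2 was also the lowest for CISH probe A_23_P144096, at -0.61, -0.83 and -0.71 (0.0028), and for SOCS5 probe A_24_P328492, at -1.36, -1.62 and -1.35 (0.044). SOCS1 probe A_23_P420196 was highest there, at -1.33, -1.01 and -1.21 (0.0024), as was SOCS3 probe A_23_P207058, at 0.69, 0.80 and 0.62 (0.033). CISH probe A_24_P97465 was just inside the threshold (0.049), and SOCS2 probe A_23_P128215 just outside it (0.055), with slide means of -0.30, -0.33 and -0.16. For 5 of these 10 probes, both of SOCS6, SOCS1 probe A_23_P420196, SOCS5 probe A_24_P328492 and STAT3 probe A_23_P100795, the slide means lay farther apart than the means of the conditions.

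**Figure D3:**
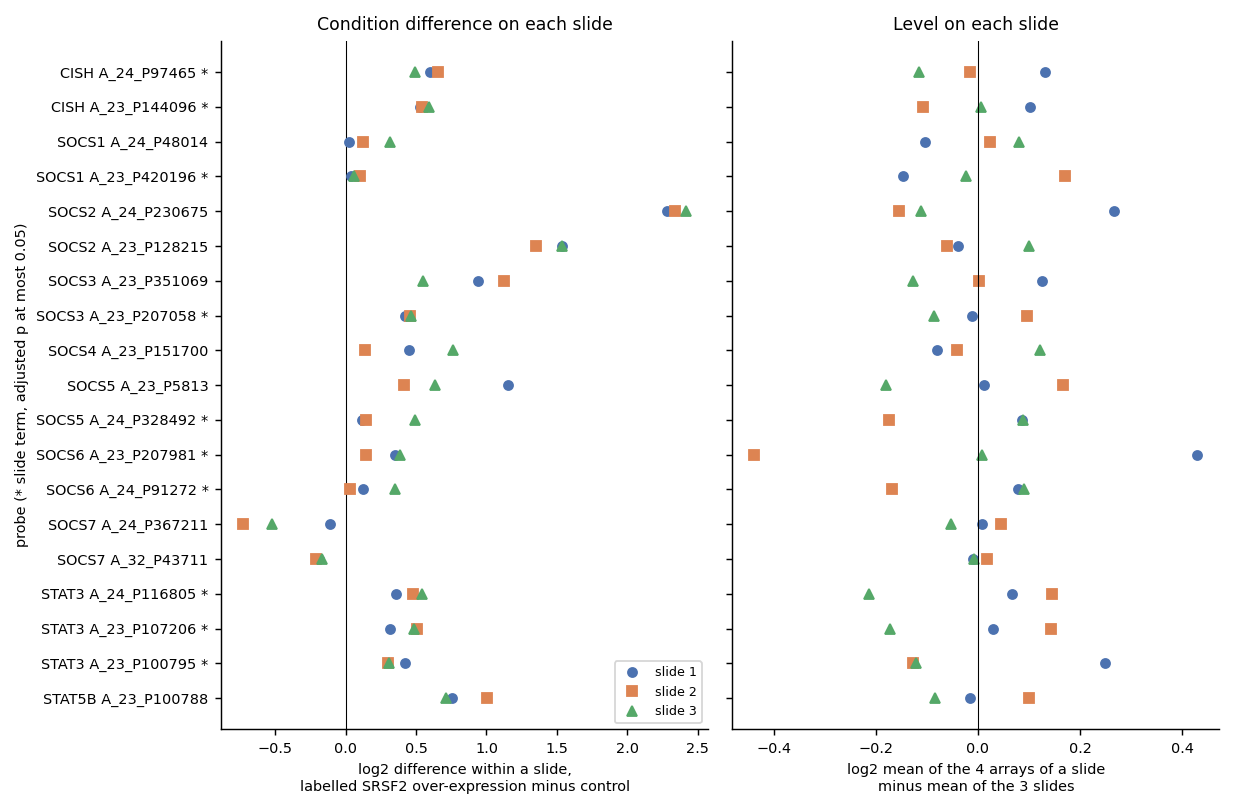
Left, log2 difference between the conditions within each of the 3 slides (2 arrays against 2) for the 19 probes tested; right, mean of the 4 arrays of a slide minus the mean of the slides, on the log2 scale. A star marks the 10 probes whose slide term passed an adjusted p of 0.05. All 19 differences keep their sign on the 3 slides, a count not made for all probes. SOCS6 A_23_P207981 has the widest spread of slide means, from -4.27 on slide 2 to -3.40 on slide 1.

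The genes whose profile over the 12 arrays was most like that of SOCS2 probe A_23_P128215, by Pearson's r, were NAA30, COX19, PHAX, GOLPH3L and MED20. Their r lay between 0.997 and 0.998 and their log2 differences between 0.92 and 1.24. The arrays share 2 conditions and 3 slides, and a probe with a large difference between the conditions and little scatter gives a high r with any other of that kind.

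The rest of the pathway was followed by lists set by role: 94 genes in 7 lists, of which 90 had a probe. Of their 134 probes 89 were tested, and 44 passed the adjusted p, 25 higher and 19 lower. Beside them stand the 57.7% of all probes given above, 29.7% higher and 28.0% lower. In each list below, probes counted as higher or lower are those that passed the adjusted p. The 2-fold call was made for 4 higher and 2 lower of the 89, close to the 7.00% of all probes (3.68% higher and 3.31% lower). Their median log2 difference was 0.05, and no list had a median beyond -0.21 or 0.10.

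Among the cytokine ligands most probes were too dim: 5 of 15 were tested, and 2 were higher and 1 lower past the adjusted p. The lower one was CSF2, the ligand GM-CSF, whose probe A_23_P133408 ranged from 1.10 to 1.28 on the control arrays and from -1.09 to -0.97 on the SRSF2-labelled arrays. The log2 difference was -2.20 (standard error 0.05, limma adjusted p = 6.53e-12), with the conditions far apart. CSF2 signals through a receptor that uses JAK2 and STAT5.

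Of 29 receptor probes tested, 8 were higher and 7 lower past the adjusted p. IL13RA1, the chain that binds IL-13, rose on probe A_24_P288685 from a range of -1.17 to -0.97 to one of -0.21 to 0.17, a difference of 1.03 (standard error 0.07, limma adjusted p = 1.03e-07), and by 0.77 (0.06, 2.88e-07) on probe A_23_P137196. On its brightest probe, A_24_P280113, the rise was 0.29 (0.07, 0.0027). OSMR, the oncostatin M receptor, rose by 0.72 (0.12, 0.00028) on probe A_24_P388860. LIFR, the receptor of leukaemia inhibitory factor, fell by 1.16 (0.31, 0.0057) on probe A_24_P325992, but its ranges, 0.68 to 1.57 and -0.74 to 0.82, overlapped, and the adjusted p was 0.073 with slide 1 and 0.051 with slide 3 left out. IFNAR1, a chain of the type I interferon receptor, fell by 0.83 (0.06, 2.46e-07), and CSF2RA, the binding chain for GM-CSF, fell by 0.75 (0.07, 1.86e-06) on probe A_23_P136173.

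IL6ST, which encodes gp130, the shared signalling chain that SOCS3 binds, had a difference of 0.71 (standard error 0.27, limma adjusted p = 0.038) on probe A_23_P502470. Of the control arrays 4 measured it well above background, its ranges overlapped, and the call was lost with slide 1 left out (0.093) or slide 2 left out (0.23). GHR and PRLR, the growth hormone and prolactin receptors at which SOCS2 and CISH act, were not tested. The GHR probes were well above background on 2 and 0 control arrays and on 2 and 1 of the others, and the PRLR probe on 0 arrays.

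Of the 6 JAK kinase probes tested, 0 were higher and 2 lower past the adjusted p, and 4 did not pass it. JAK1, which serves most cytokine receptors, had probes that differed from each other: A_24_P410678 fell from a range of -0.66 to -0.38 to one of -1.67 to -1.32, by 0.95 (standard error 0.08, limma adjusted p = 5.41e-07), while A_23_P97005 changed by 0.06 (0.06, adjusted p = 0.40). Whether the probes of JAK1 differ in their change was not tested. JAK2 changed by 0.14 (0.10, adjusted p = 0.26). TYK2 fell by 0.31 (0.09, adjusted p = 0.011) on A_23_P153311, a call lost with slide 1 left out (0.059) or slide 3 left out (0.12), and its difference on A_23_P141917 was -0.27 (0.12, adjusted p = 0.071).

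Among the other STAT factors, STAT4 fell by 0.72 (standard error 0.09, limma adjusted p = 1.68e-05) on probe A_23_P68031, and STAT6, the factor of IL-4 and IL-13 signalling, fell by 0.59 (0.05, 2.55e-07) from 2.63 to 2.74 on the control arrays to 2.01 to 2.19. STAT2 had a difference of -0.21 (0.16, adjusted p = 0.30). STAT5A, the close relative of STAT5B, had both probes well above background on 0 arrays, so STAT5B could not be set beside it.

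When the arrays were scaled on the spike-in controls, which raised the median difference of all probes by 0.21, the calls of STAT4 (limma adjusted p = 0.081), STAT6 (0.20), CSF2RA (0.054) and TYK2 (0.76) were lost. With slide 1 left out that scaling raised the median by 0.03. With normexp these 4 calls were lost, as were those of OSMR A_24_P388860 (0.95) and IL13RA1 A_24_P280113 (0.33). The calls of PIAS1 A_23_P163353 (0.18) and JUNB A_23_P4821 (0.23), given below, were lost too. After replacement of flagged local backgrounds TYK2 (0.072), IL6ST (0.086) and SERPINA3 (0.075) did not pass.

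The remaining inhibitors gave 5 higher and 2 lower of 17 probes past the adjusted p. PIAS1, a SUMO ligase that restrains STAT factors in the nucleus, rose on both of its probes, by 1.13 (standard error 0.04, limma adjusted p = 6.21e-10) on A_23_P163353 and by 0.76 (0.05, 4.60e-08) on A_23_P163347. Of the partners of the SOCS box, the cullins, RING proteins and elongins of the ubiquitin ligase, 7 probes were tested. Past the adjusted p 1 was higher and 2 were lower, and none of the 7 reached 1.5-fold.

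Of the target genes of STAT3 and STAT5, 20 probes of 14 genes were tested, with a median log2 difference of 0.10. Past the adjusted p 7 were higher and 3 lower. MCL1, an anti-apoptotic BCL2 relative, rose by 1.06 (standard error 0.07, limma adjusted p = 4.92e-08) on probe A_24_P319635, while its probes A_24_P336754 and A_24_P336759 had differences of -0.17 and 0.02 that did not pass. JUNB, an AP-1 subunit, rose by 0.79 (0.07, 1.29e-06) on A_24_P241815. On its brighter probe, A_23_P4821, the rise was 0.35 (0.12, 0.021) and the ranges overlapped. SERPINA3, an acute-phase protease inhibitor, rose by 0.68 (0.16, 0.0027) on A_23_P162918, with 3 control arrays well above background, and with normexp its difference was -0.20 (adjusted p = 0.86).

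**Figure D4:**
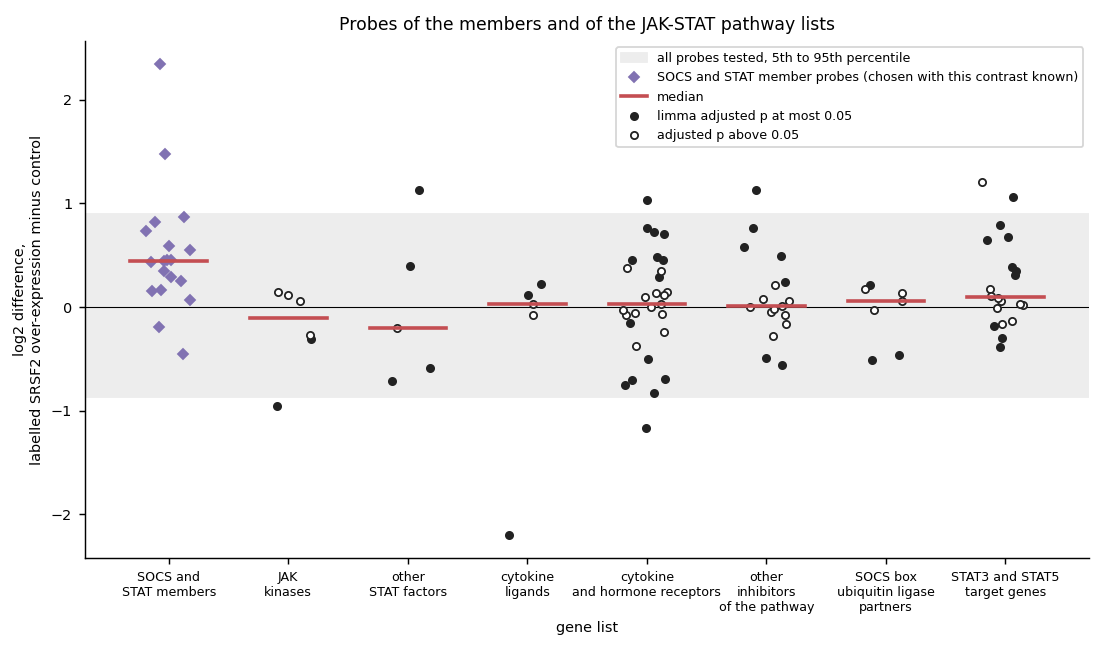
Log2 difference, arrays labelled SRSF2 over-expression minus control arrays, of every tested probe of the SOCS and STAT genes (violet) and of the 7 pathway lists (filled where the limma adjusted p was at most 0.05, open where it was above); red lines are medians and the grey band spans the 5th to 95th percentile of all probes tested. The SOCS and STAT median lies at 0.45, and the lists' medians lie between -0.21 and 0.10, with CSF2 at -2.20 the lowest point.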

How the data were processed

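Expression was measured on 12 one-colour arrays. The authors deposited the scanned intensity of each spot as processed by Feature Extraction 10.7.3.1, with the background subtracted. They also deposited a table of log2 values with the same scaling, centred on each probe, which served as an alternative only. Their methods compare the conditions by a t-test on probes with few missing values.

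Spots flagged as feature outliers were set missing, log2 values of the spots of a probe were averaged, and from each array the 75th percentile of its gene probes was subtracted. The filter on dim probes kept 24330, those with no more than 25% missing values that 5 of the 6 arrays of either condition measured well above background. They were compared with limma 3.58.1 in R 4.3.3 (lmFit and eBayes, unpaired, Benjamini-Hochberg adjustment over all kept probes), and the fit was tested on simulated data. The number of arrays limits the precision. Slides were tested with an F-test in a fit with condition and slide. Summaries were made with Python 3.11.15, and figures with matplotlib 3.10.9.

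RefSeq accessions named 23958 of 41000 gene probes through the GRCh38.p14 gene table. The annotation in the files is of build hg18, and no probe coordinates were used. The signal that replaced the control signals of SOCS2 probe A_24_P230675 was taken per array.

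The members and the pathway lists were chosen with earlier results of these data known. Named in the text are every member probe, SRSF2, up to 3 rises and 3 falls of each list past an adjusted p of 0.05 and 1.5-fold, fixed genes of the pathway (JAK1, JAK2, TYK2, STAT2, STAT5A, STAT6, IL6ST, GHR and PRLR) and the 5 genes most like SOCS2. Other probes of the named genes MCL1, JUNB, IL13RA1 and SERPINA3 were added after their values were seen. For OSMR, LIFR and CSF2RA only the probe with the largest change is given. Another gene that the rule names is not reported here.

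The labels number the arrays 1 to 6 in each condition. Same-numbered arrays departed from their condition means in the same way (r from 0.28 to 0.64 over 6 pairs), as did other numbers on the same slide (0.33 to 0.65) and not arrays of different slides (-0.48 to -0.05), and the numbers thus pair arrays through the slide. Alternatives were scaling on the median, on 7 spike-in probes or by quantiles, normexp (offset 50), the authors' table, no background subtraction, other filters, outlier spots kept, the methods' t-test, blocks, means of 2 arrays, slides left out and a 1.5-fold threshold. Those added after seeing the data were normexp with flagged local backgrounds replaced, slide as a block on the means of 2 arrays, and spike-in scaling with slide 1 left out.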

Additional observations from a re-analysis of the deposited data

Results flagged for a closer look

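In 4 of 88 groups of 6 arrays a single array lay far from the others of its condition by Dixon's test, which marks about 1 in 20 groups by chance. All 4 were control arrays. SOCS4 probe A_24_P90637, which was not tested, stood at -3.61 on control array 5, where the nearest other control array was at -6.00. STAT2 probe A_23_P76090 stood at -2.98 on the same array, with the nearest at -3.75. On control array 2, TYK2 probe A_23_P141917 stood at -1.95, with the nearest at -2.54, and IL6ST probe A_23_P502470 at -4.96, with the nearest at -4.11. The cause was not tested.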

How the results depend on the processing

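The 2 member probes and 6 pathway probes past the 2-fold threshold, and the 1702 of all probes, became 0, 1 and 319 with normexp, 1, 2 and 685 with normexp after flagged local backgrounds were replaced (added after seeing the data), 1, 2 and 798 without background subtraction, and 5, 20 and 5593 at a 1.5-fold threshold. Spike-in scaling gave 4 member probes, adding SOCS3 A_23_P351069 (1.08) and STAT5B (1.03), and the stricter filter gave 1, since SOCS2 A_24_P230675 was left out. The 10 member probes that differed between slides became 0 with normexp and 9 with normexp after flagged local backgrounds were replaced. They were 10 without background subtraction and 15 with spike-in scaling. Of the pathway probes named by the rule that passed the adjusted p, IL6ST A_23_P502470 turned to -0.11 and SERPINA3 A_23_P162918 to -0.20 with normexp. On control arrays 2, 5 and 6 and SRSF2-labelled arrays 3 and 6 the lowest signal minus local background lay between -6328.5 and -65463, and the background SD that normexp fitted was 116 to 1522, against 0.36 to 3.47 on all 12 arrays with the flagged backgrounds replaced.

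With the replicate number as a block, 1706 probes passed, 2 of them members and 6 of the pathway lists, and the block changed no call of a pathway probe named by the rule. For probes near background, such as SOCS2 A_24_P230675, the signal over background limits the size of a difference.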
